A study of Mus musculus with 4 samples.

Results

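The genes described here encode the nuclear subunits of the mitochondrial respiratory chain and the ATP synthase, together with some of their assembly factors and isoforms. They were chosen by name, as the genes whose annotated symbol begins with Nduf, Uqcr, Cox4 to Cox8 or Atp5, or is Sdha, Sdhb, Sdhc or Sdhd. Only probe sets annotated to a single gene were taken, which gave 179 of 34945 such probe sets and 90 of the 18193 genes they name. A further 10 probe sets carried a matching symbol together with another gene and were left out. By the prefix of the symbol, 44 genes belonged to complex I, 4 to complex II, 8 to complex III, 17 to complex IV and 17 to complex V.

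The arrays measured RNA of CD4 single-positive thymocytes, T cell precursors that have chosen the CD4 lineage, sorted as CD4+ cells lacking CD25, the gamma delta T cell receptor and binding of the CD1d-PBS57 tetramer. The LM group was CD4Cre-Cul3fl/fl and the KO group CD4 Cre+Cul3fl/fl, both in the B6 background, with 2 arrays in each group. Both groups therefore carried the floxed Cul3 alleles, and they differed in the Cre transgene, whose CD4 promoter acts in the T lineage. No group carried Cre without floxed Cul3, so the action of Cre and the loss of Cul3 cannot be told apart. The animals' age is not given in the sources used here. Nor is it said whether replicates were separate animals, so the spread that p-values are set against may be technical.

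The respiratory chain passes electrons from NADH and succinate to oxygen and pumps protons across the inner mitochondrial membrane, and the ATP synthase uses the return flow of protons to make ATP. Complex I oxidises NADH, complex II oxidises succinate and is also an enzyme of the citric acid cycle, complex III passes electrons from ubiquinol to cytochrome c, and complex IV, cytochrome c oxidase, hands them to oxygen. Resting thymocytes draw much of their ATP from this chain, and T cells enlarge their mitochondria when they are activated. The subunits encoded by the mitochondrial genome have other symbols and are not covered.

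All 4 arrays correlated with one another at r of 0.961 to 0.974 over the 11255 genes tested. The targeted gene, Cul3, gave 5501 and 5550 in LM replicates 1 and 2 and 5326 and 5650 in KO replicates 1 and 2 with its brightest probe set, and KO minus LM was -0.01 ± 0.09 (log2 ± SE; adjusted p = 0.994 in limma). Which exons were removed and where the probes lie is not given in the sources used here, so this probe set does not check the genotype, which rests on the labels: "KO" here means labelled KO. Of the named markers of CD4 single-positive T cells, 7 of 7 were above background on all 4 arrays. So were 5 of 7 markers of double-positive thymocytes and 3 of 4 of CD8 T cells, with Cd8a and Cd8b1 counted in both. Regulatory T cells had 5 of 5, in cells sorted as lacking CD25. Macrophages and dendritic cells had 2 of 8, thymic stroma 2 of 7, NK and NKT cells 1 of 4 and gamma delta T cells 1 of 2. B cells had 0 of 5, granulocytes 0 of 4 and erythroid cells 0 of 4. Summed over 5 regulatory T cell markers, the signal was 4634 and 4351 in LM replicates 1 and 2 and 6590 and 5846 in KO replicates 1 and 2, a sum in which Ikzf2 was the largest term, and 0 of the 5 passed the limma threshold (smallest adjusted p = 0.221). Of 19 cell cycle markers tested, all 19 had a lower mean on the KO arrays, against 49.7% of all genes tested. The median log2 difference of the 19 was -0.81. Of them 7, Mki67, Top2a, Ccna2, Cenpe, Cenpf, Kif11 and Ube2c, were called lower, where 0.142% of all genes tested were. These 7 calls became 0 without the filter on dim genes and 0 without the intensity trend in limma's eBayes. In bulk RNA, fewer cells of a type and less RNA per cell cannot be told apart, and the part of cycling or regulatory T cells in the values below was not tested.

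Promoters are shown for the 5 genes with the smallest p-values, because these are the members whose values come nearest to a difference between the genotypes. They are Ndufc2, Sdha, Uqcrc1, Cox6a1 and Sdhd. The sequences are from RefSeq (GRCm38.p6) and run from 250 bases before to 50 bases after the annotated start of the gene, 5′ to 3′ on the gene's own strand. Capitals mark matches, on either strand, to 4 motifs of factors known to act at genes of oxidative phosphorylation: NRF1 (the core CGCATGCG, which reads the same on both strands), ETS factors such as GABP (CCGGAAG), YY1 (AAGATGGCG) and the estrogen-related receptor half-site (AAGGTCA).
The Ndufc2 promoter lies at chr7:97399753-97400052, plus strand, and held none of these motifs.
Ndufc2: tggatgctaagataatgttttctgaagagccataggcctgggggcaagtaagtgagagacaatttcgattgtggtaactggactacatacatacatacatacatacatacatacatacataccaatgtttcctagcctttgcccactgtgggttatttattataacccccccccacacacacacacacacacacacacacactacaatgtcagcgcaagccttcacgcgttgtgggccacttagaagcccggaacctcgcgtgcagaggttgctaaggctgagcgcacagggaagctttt
The Sdha promoter lies at chr13:74350191-74350490, minus strand, and held none either.
Sdha: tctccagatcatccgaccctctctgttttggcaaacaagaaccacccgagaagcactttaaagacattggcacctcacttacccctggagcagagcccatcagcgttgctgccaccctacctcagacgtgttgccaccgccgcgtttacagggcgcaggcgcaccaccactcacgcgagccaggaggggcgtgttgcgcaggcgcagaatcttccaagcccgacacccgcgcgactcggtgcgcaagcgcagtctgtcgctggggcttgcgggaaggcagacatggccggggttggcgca
The Uqcrc1 promoter lies at chr9:108936398-108936697, plus strand, with an NRF1 match that begins 31 bases after the start.
Uqcrc1: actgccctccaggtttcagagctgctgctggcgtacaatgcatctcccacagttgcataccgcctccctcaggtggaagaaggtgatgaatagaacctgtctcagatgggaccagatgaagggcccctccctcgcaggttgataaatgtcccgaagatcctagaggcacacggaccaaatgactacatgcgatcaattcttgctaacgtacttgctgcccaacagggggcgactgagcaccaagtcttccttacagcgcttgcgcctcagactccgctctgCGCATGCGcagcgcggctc
The Cox6a1 promoter lies at chr5:115348909-115349208, minus strand, with an NRF1 match 161 bases before the start and an ETS match in reverse orientation 16 bases before it.
Cox6a1: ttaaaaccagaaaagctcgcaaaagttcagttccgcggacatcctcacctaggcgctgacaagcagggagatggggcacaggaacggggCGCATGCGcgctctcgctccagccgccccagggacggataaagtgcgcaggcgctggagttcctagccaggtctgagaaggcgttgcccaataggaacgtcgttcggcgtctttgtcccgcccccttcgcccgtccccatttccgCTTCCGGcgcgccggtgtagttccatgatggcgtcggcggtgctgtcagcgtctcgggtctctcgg
The Sdhd promoter lies at chr9:50603800-50604099, minus strand, with an ETS match in reverse orientation 46 bases before the start and a receptor half-site in reverse orientation 36 bases after it.
Sdhd: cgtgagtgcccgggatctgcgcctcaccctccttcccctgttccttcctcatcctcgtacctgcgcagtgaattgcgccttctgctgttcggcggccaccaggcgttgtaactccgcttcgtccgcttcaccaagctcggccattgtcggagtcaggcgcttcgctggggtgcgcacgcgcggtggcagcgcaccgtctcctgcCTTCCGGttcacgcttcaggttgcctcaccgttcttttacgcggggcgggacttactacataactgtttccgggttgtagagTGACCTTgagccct
A match is a description of these letters and not evidence that a factor bound there.

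No member was called between the genotypes. Of the 90 genes, 86 exceeded background on at least 2 arrays and were tested, and 0 of these 86 passed an adjusted p of 0.05 in limma, where 0.275% of all 11255 genes did (31 genes). The smallest adjusted p among the members was 0.334. At an unadjusted p below 0.05 there were 5 of the 86 members, a smaller share than the 8.4% of all genes tested. Of these, 4 were lower on the KO arrays (Ndufc2, Sdha, Uqcrc1 and Cox6a1), against 4.17% of all genes tested, and 1 was higher (Sdhd), against 4.23%.

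The differences were small as well as uncalled. Of the 86 tested genes, 35 were higher and 51 lower on the KO arrays, by the mean of each group as in all such counts below, with a median log2 difference of -0.03 beside 0.002 for all genes tested, and none differed by 2-fold. Both KO arrays lay above both LM arrays for 11 members and below them for 17, against 19.1% and 18.3% of all genes tested (37.4% in either direction), while the groups overlapped for 58. The median turned from -0.03 to 0.02 when KO replicate 2 was left out and was -0.09 without KO replicate 1, so its sign rested on a single array.

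These genes also had smaller fitted standard errors than most genes tested. Their median standard error was 0.13 on the log2 scale, against 0.22 for all genes tested. The 95% interval of the difference, not adjusted for the number of genes, lay within 1.5-fold in either direction for 62 members (72.1%) and within 2-fold for 82 (95.3%), against 38.4% and 75.9% of all genes tested. The 4 members whose interval reached past 2-fold were Ndufb1, Ndufa4l2, Cox6b2 and Cox8c, all near background. Across the 86 genes the standard error fell with the mean log2 signal (Pearson r = -0.93, over genes that share the same 4 arrays and are not independent replicates). The fit draws each gene's variance toward a trend with signal, with 9.96 prior against 2 residual degrees of freedom. This relation is therefore partly built into the fit, and no comparison with genes of like signal was made.

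**Figure D1:**
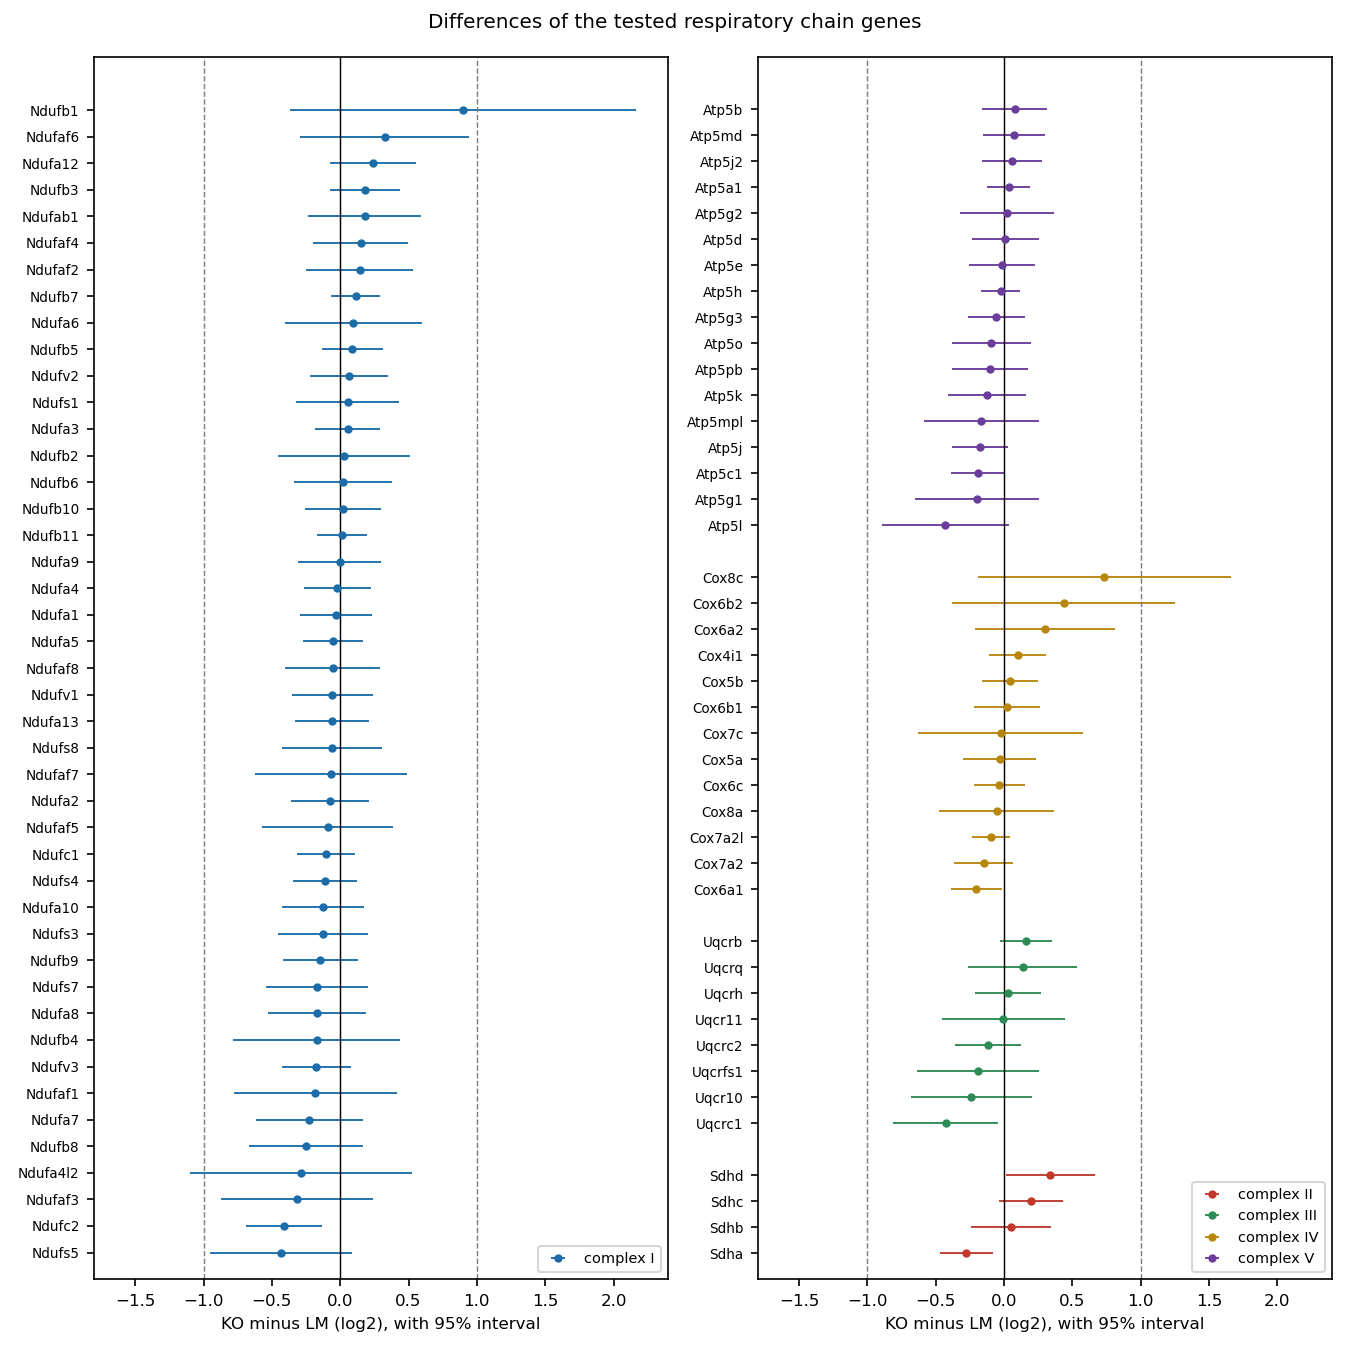
Log2 difference of KO minus LM for each of the 86 tested genes, ordered within its complex, with the 95% interval of the limma fit; dashed lines mark 2-fold in either direction. No point lies beyond 2-fold, and the widest intervals are those of Ndufb1 and Cox8c.

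**Figure D2:**
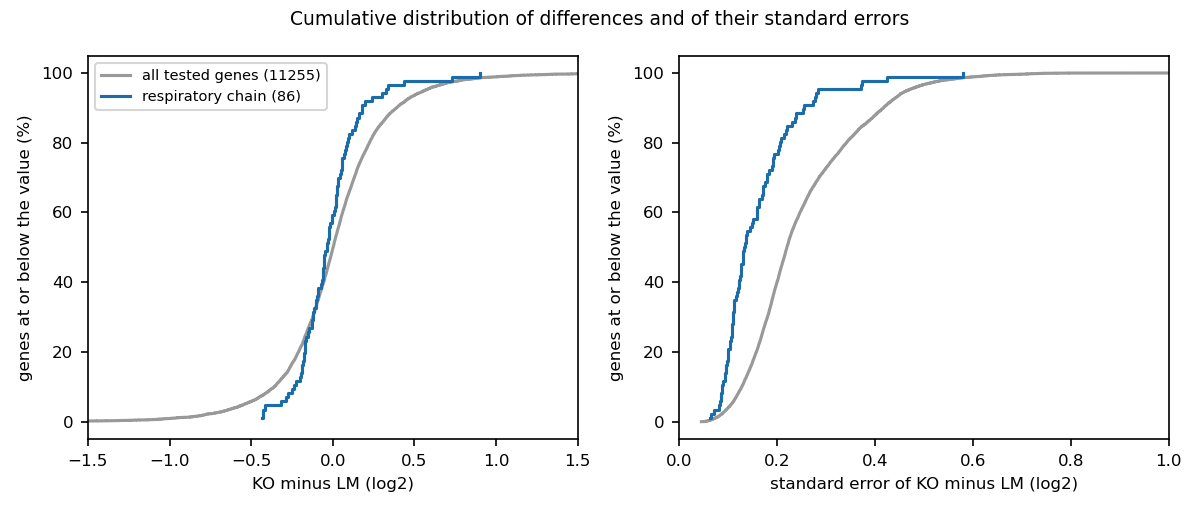
Cumulative share of genes (%) at or below a given log2 difference of KO minus LM (left) or a given standard error (right), for the 86 respiratory chain genes and all 11255 tested genes. The differences of the chain genes span a narrower range around 0, and their standard errors have a median of 0.13 against 0.22.

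Complex I is the largest assembly of the chain, and its 44 members were all tested. Of them 17 were higher and 27 lower on the KO arrays, with a median log2 difference of -0.06. Its catalytic core, which holds the flavin and the iron-sulfur clusters, was represented by 6 genes. The NADH-binding flavoprotein Ndufv1 differed by -0.06 ± 0.14 (log2 difference ± SE) and its partner Ndufv2 by 0.07 ± 0.13. The large iron-sulfur subunit Ndufs1 differed by 0.06 ± 0.17. Ndufs3 differed by -0.13, and Ndufs7 and Ndufs8, which carry the last clusters before ubiquinone, by -0.17 and -0.06. All 6 intervals, each of the gene's brightest probe set, lay within 1.5-fold of no difference, and none of the 6 was called. Other probe sets did not all share the direction. The other 5 tested probe sets of Ndufs8 were higher, up to 0.43, and the second of Ndufs7 differed by 0.02. Those of Ndufv1 and of Ndufv2 kept the same sign within each gene.

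Among the 30 accessory subunits of complex I, 12 were higher and 18 lower, with a median of -0.04. Ndufb7, the complex I member with the highest mean signal, read 7445 and 7709 in LM replicates 1 and 2 and 8491 and 7926 in KO replicates 1 and 2, without overlap, and differed by 0.11 ± 0.08 (limma adjusted p = 0.804). Ndufc2, a small membrane-arm subunit, had the smallest p of all members. Its signal was 3208 and 3031 in LM replicates 1 and 2 and 2418 and 2262 in KO replicates 1 and 2, so the groups did not overlap. The difference was -0.41 ± 0.13 on the log2 scale (95% interval -0.69 to -0.13, limma adjusted p = 0.334). The gene's other 2 tested probe sets differed by 0.17 and 0.06, in the opposite direction, and the mean of its probe sets differed by -0.004.

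Ndufs5, a subunit of the intermembrane-space side, had the lowest value among complex I members. It read 477 and 549 in LM replicates 1 and 2 and 441 and 319 in KO replicates 1 and 2, with both KO arrays below both LM arrays and KO replicate 2 the lowest. Its difference was -0.43 ± 0.24 (limma adjusted p = 0.703). Ndufb1, a single-pass membrane subunit, had the highest value, 0.90 ± 0.58, but was above background on 2 arrays only. It read 32.5 and 109 in LM replicates 1 and 2 and 210 and 77.3 in KO replicates 1 and 2: the groups overlapped, and the interval of -0.36 to 2.17 left the direction unresolved.

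The next highest subunit was Ndufa12 (0.24 ± 0.14), which joins the NADH-oxidising arm late in assembly. The 8 assembly factors, which build the complex but are not part of it, had a median of -0.06, with 3 higher and 5 lower. They ran from -0.32 for Ndufaf3 to 0.33 for Ndufaf6. Ndufaf6 read 186 and 217 in LM replicates 1 and 2 and 281 and 233 in KO replicates 1 and 2, without overlap between the groups (limma adjusted p = 0.846).

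Complex II is made of 4 subunits, all nuclear, and its members did not share a direction. Sdha, the flavoprotein that oxidises succinate, read 7093 and 7225 in LM replicates 1 and 2 and 6096 and 5731 in KO replicates 1 and 2. Both KO arrays lay below both LM arrays. The difference was -0.28 ± 0.09 (95% interval -0.47 to -0.08, limma adjusted p = 0.360), and the gene's other 2 probe sets were lower too, by -0.12 and -0.08.

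The iron-sulfur subunit Sdhb, which takes the electrons from Sdha, read 2642 and 3015 in LM replicates 1 and 2 and 2733 and 3138 in KO replicates 1 and 2. The groups overlapped, and the difference of 0.05 ± 0.13 turned to -0.01 under median centring and to -0.04 and -0.05 without LM replicate 1 and without KO replicate 2. The membrane anchors Sdhc and Sdhd, which bind heme and ubiquinone, had positive values. Sdhc read 3853 and 3762 in LM replicates 1 and 2 and 4238 and 4509 in KO replicates 1 and 2, a difference of 0.20 ± 0.11 with no overlap (limma adjusted p = 0.699).

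Sdhd read 5183 and 3579 in LM replicates 1 and 2 and 5657 and 5257 in KO replicates 1 and 2, so that LM replicate 2 stood well below the other 3 arrays. The difference was 0.34 ± 0.15 (limma adjusted p = 0.571). Without LM replicate 1 it was 0.61 with a limma adjusted p of 0.00498, the only call of any member under any alternative, and without LM replicate 2 it was 0.07. The range of adjusted p-values for Sdhd over its alternatives ran from 0.00498 to 0.999. The second tested probe sets of Sdhc and Sdhd differed by -0.03 and -0.01, so the positive values of both anchors rested on 1 probe set each.

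Complex III had 3 higher and 5 lower members, with a median of -0.06. Both core proteins and the Rieske iron-sulfur subunit had lower means on the KO arrays, and the arrays of the Rieske gene overlapped. Uqcrc1, a core protein, read 1449 and 1590 in LM replicates 1 and 2 and 1262 and 1001 in KO replicates 1 and 2, without overlap. It differed by -0.43 ± 0.18 (95% interval -0.81 to -0.04, limma adjusted p = 0.533), and leaving out KO replicate 1 or KO replicate 2 gave -0.59 or -0.26.

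The second core protein, Uqcrc2, read 3938 and 3969 in LM replicates 1 and 2 and 3774 and 3506 in KO replicates 1 and 2 and differed by -0.12 ± 0.11. The Rieske protein Uqcrfs1 read 992 and 1005 in LM replicates 1 and 2 and 1044 and 730 in KO replicates 1 and 2, so KO replicate 2 alone was low, and it differed by -0.19 ± 0.20. The small subunits, which surround the core, had a median of 0.03. Uqcrb, which takes part in ubiquinone binding, read 6912 and 6570 in LM replicates 1 and 2 and 7191 and 7890 in KO replicates 1 and 2 and was higher on both KO arrays by 0.16 ± 0.09 (limma adjusted p = 0.703). Uqcr10 read 1697 and 1175 in LM replicates 1 and 2 and 1073 and 1326 in KO replicates 1 and 2. LM replicate 1 stood apart there, and its difference of -0.24 became 0.02 without that array. The difference of Uqcrq, 0.14, became -0.06 without KO replicate 1. Both genes had 3 tested probe sets with mixed signs. For Uqcr10, 2 of them were higher, up to 0.05, and for Uqcrq 2 were lower, down to -0.36.

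Complex IV had 13 of its 17 members tested, 6 higher and 7 lower, with a median of -0.03. The 10 widely expressed isoforms and related proteins had 3 higher and 7 lower values. Cox6a1, the common form of a regulatory subunit, read 7745 and 7812 in LM replicates 1 and 2 and 7047 and 6476 in KO replicates 1 and 2, without overlap. The difference was -0.20 ± 0.09 (limma adjusted p = 0.554), and the gene's second probe set differed by -0.07. Cox7a2 read 7225 and 8459 in LM replicates 1 and 2 and 7434 and 6671 in KO replicates 1 and 2, with overlap, and differed by -0.15 ± 0.10 (limma adjusted p = 0.772). Cox6b1 and Cox8a, both common isoforms, overlapped between the groups too and differed by 0.02 ± 0.11 and -0.05 ± 0.19. Cox4i1, whose product binds ATP on the matrix side, read 5514 and 5717 in LM replicates 1 and 2 and 6299 and 5750 in KO replicates 1 and 2, a difference of 0.10 ± 0.10 with both KO arrays above both LM arrays. Cox7a2l read 13444 and 13129 in LM replicates 1 and 2 and 12449 and 12412 in KO replicates 1 and 2. It differed by -0.10 ± 0.06, with no overlap and a limma adjusted p of 0.776.

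The other 7 complex IV members are isoforms known from particular tissues or states, such as the heart and muscle forms Cox6a2, Cox7a1 and Cox8b, the hypoxia-related Cox4i2 and the testis forms Cox6b2, Cox7b2 and Cox8c. Cox4i2, Cox7b2 and Cox8b were above background on 0 arrays and Cox7a1 on 1 array, and these 4 were not tested. Cox7a1 read 58.2 and 70.0 in LM replicates 1 and 2 and 75.3 and 103 in KO replicates 1 and 2, where the background was 106, 92.3, 98.4 and 77.7 in the same order of arrays. With its brightest probe set, Cox6a2 was above background on all 4 arrays and differed by 0.30 ± 0.24. It read 318 and 360 in LM replicates 1 and 2 and 380 and 464 in KO replicates 1 and 2. The gene's second probe set was above background on 0 arrays and was not tested. Cox6b2 differed by 0.44 ± 0.37 and Cox8c by 0.73 ± 0.42. Cox8c read 130 and 76.6 in LM replicates 1 and 2 and 250 and 124 in KO replicates 1 and 2, so KO replicate 1 alone was high and the groups overlapped. All 3 tested isoforms had positive values, with limma adjusted p-values of 0.828, 0.843 and 0.723. Cox8c passed the filter with 1 LM array and both KO arrays, as LM replicate 2 was below background. In LM replicates 1 and 2 Cox6b2 read 120 and 105, near background, and in KO replicates 1 and 2 129 and 191. The shared sign is therefore not read as a result about these isoforms. Ndufa4, named as a complex I subunit and since assigned to complex IV, read 3691 and 3924 in LM replicates 1 and 2 and 3864 and 3634 in KO replicates 1 and 2 and differed by -0.02 ± 0.11. Its paralog Ndufa4l2, known as a target of hypoxia-inducible factor, read 158 and 126 in LM replicates 1 and 2 and 106 and 121 in KO replicates 1 and 2, little above background, and differed by -0.28 ± 0.37.

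**Figure D3:**
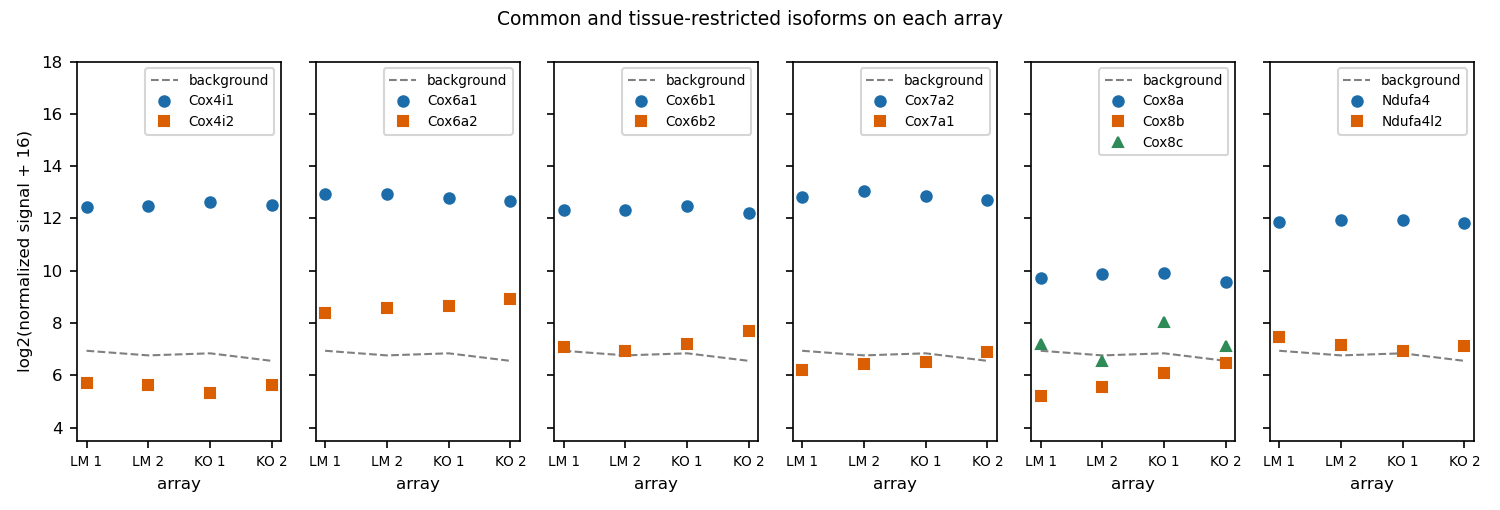
Log2 of the normalized signal plus 16 on each of the 4 arrays for common (circles) and tissue-restricted (squares, triangles) isoforms; the dashed line is the background of each array. The 4 untested isoforms Cox4i2, Cox7a1, Cox8b and Cox7b2 (the last not drawn) exceeded background on at most 1 array, and levels of different probe sets are not comparable with one another.

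Complex V had 6 higher and 11 lower members, with a median of -0.06 that was -0.12 under median centring, where the median of all genes was -0.05. The F1 head, which makes the ATP, had 3 higher and 2 lower members. The catalytic partners Atp5a1 and Atp5b differed by 0.03 ± 0.07 and 0.08 ± 0.11. Atp5a1 read 13560 and 15605 in LM replicates 1 and 2 and 14827 and 14937 in KO replicates 1 and 2. The interval of this probe set, -0.12 to 0.19, was among the tightest of all members. The gene's other 2 tested probe sets differed by -0.29 and 0.03. Atp5b read 6924 and 8932 in LM replicates 1 and 2 and 8178 and 8444 in KO replicates 1 and 2, so LM replicate 1 was the low array, and without it the difference was -0.10.

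Atp5c1, the central shaft of the rotor, read 6886 and 7517 in LM replicates 1 and 2 and 6440 and 6175 in KO replicates 1 and 2, without overlap, and differed by -0.19 ± 0.09 (limma adjusted p = 0.620). The 4 subunits of the peripheral stalk, which holds the head still, had lower means on the KO arrays, from -0.03 for Atp5h to -0.18 for Atp5j, with Atp5o at -0.09 and Atp5pb at -0.10. The groups overlapped for 3 of the 4, all but Atp5j, the second probe set of Atp5pb differed by 0.02, and none of the 4 was called. The 3 genes for the proton-carrying c ring encode the same mature protein. Atp5g1 differed by -0.20, Atp5g2 by 0.02 and Atp5g3 by -0.06, and the Atp5g1 value turned to 0.02 without LM replicate 1. The second tested probe sets of Atp5g1 and Atp5g2, both dimmer, had the opposite signs, at 0.08 and -0.59.

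Atp5l, the g subunit of the membrane sector, had the lowest value of complex V. It read 956 and 956 in LM replicates 1 and 2 and 856 and 581 in KO replicates 1 and 2, so that KO replicate 2 was far below the other 3 arrays. The difference was -0.43 ± 0.21 (limma adjusted p = 0.651). It was -0.16 without KO replicate 2 and -0.70 without KO replicate 1. Atp5md, a small membrane subunit, differed by 0.07, and its sign turned without LM replicate 1 or KO replicate 1. The inhibitor of the ATP synthase, annotated as Atpif1 and so outside the naming rule, read 4297 and 4434 in LM replicates 1 and 2 and 5052 and 5225 in KO replicates 1 and 2, without overlap, and differed by 0.23 ± 0.10 (limma adjusted p = 0.558).

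The arrays of the KO group differed from each other more than the groups did. As the median over the 86 members of each gene's deviation from its own mean, the 4 arrays lay at -0.01 and 0.05 (LM replicates 1 and 2) and at 0.05 and -0.07 (KO replicates 1 and 2). KO replicate 1 was above KO replicate 2 for 61 of 86 members (70.9%), against 51.1% of all genes tested, with a median gap of -0.11 between replicate 2 and replicate 1. LM replicate 2 was above LM replicate 1 for 53 members (61.6%), against 52.7% of all genes, with a median gap of 0.04. Without KO replicate 2 the medians of complexes I, III and IV turned to 0.03, 0.05 and 0.07, and that of complex IV was also 0.02 without LM replicate 1 and 0.02 without LM replicate 2. The low values of KO replicate 2 appeared in complexes I, III, IV and V, where its medians were -0.06, -0.11, -0.08 and -0.06, and not in complex II, where its median was 0.12. With 2 arrays against 2, an exact two-sided permutation test of such a level cannot go below p = 0.33, so no test was made of the complexes.

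**Figure D4:**
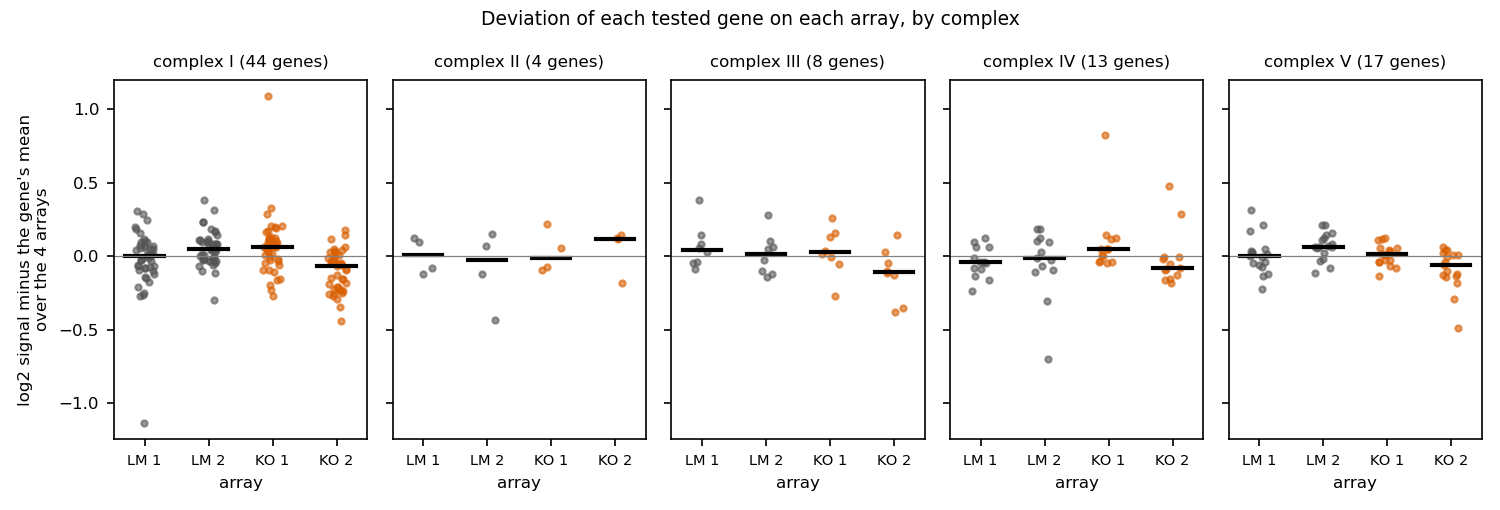
Log2 signal of each tested gene minus its mean over the 4 arrays, by complex; points are genes and black bars the median on each array. The bar of KO replicate 2 lies below 0 in complexes I, III, IV and V and above 0 in complex II.

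Probe sets of the same gene often disagreed. Of the 179 probe sets, 166 were tested one by one, and 0 passed the limma threshold, while 50 of 21795 over all genes did (0.229%). At an unadjusted p below 0.05 there were 6 of the 166, against 7.97% of all probe sets tested, namely those of the 5 genes above and a further one of Ndufab1, the mitochondrial acyl carrier protein, at 0.58. In 48 genes at least 2 probe sets were tested. All of a gene's probe sets had the same sign in 21 of these genes and mixed signs in 27. The brightest probe set stood for each gene. Of the 86 used here, 20 are of the types (ending _s_at or _x_at) that can match transcripts of more than 1 gene. Among them are those of Sdha, Sdhc, Sdhd and Uqcrq.

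**Figure D5:**
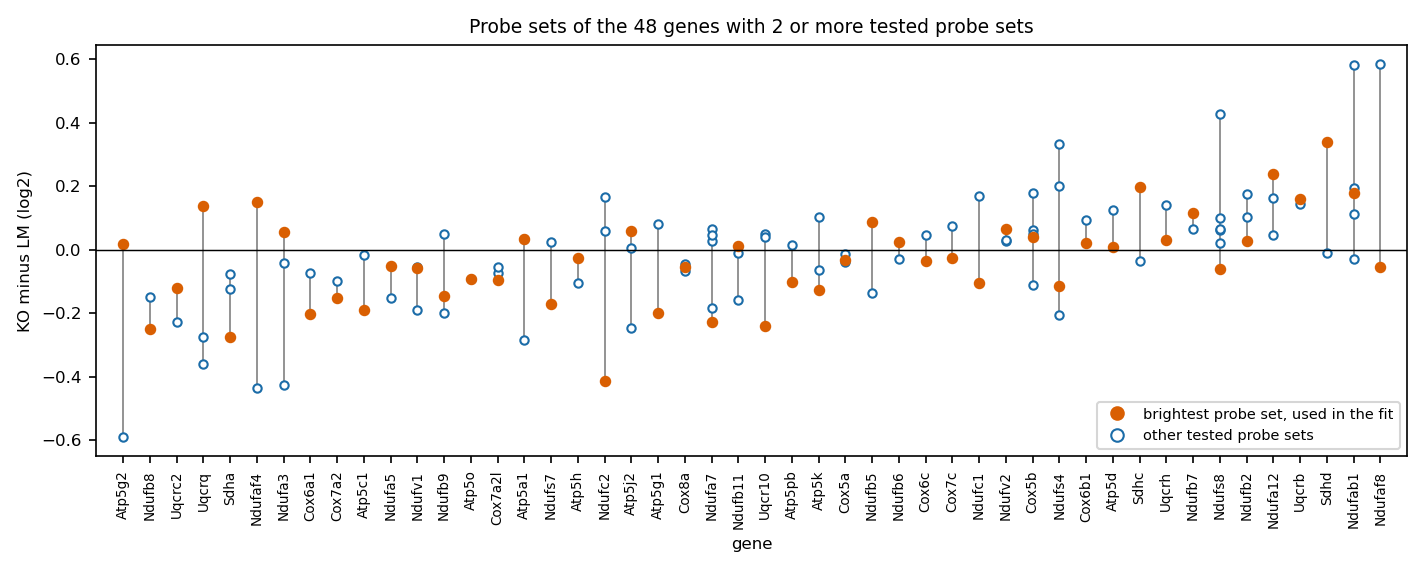
Log2 difference of KO minus LM for every tested probe set of the 48 genes with at least 2, ordered by the gene's mean; filled points are the brightest probe set and open points the others. Lines that cross 0 belong to the 27 genes with mixed signs, which include Ndufc2, Sdhc and Sdhd.

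The motifs searched for were found in the promoters of 7 to 19 members each, and each set held members in both directions. A promoter entry was held for 74 of the 90 members. The NRF1 core was present in 10 of them (13.5%), against 4.5% of the tested genes with an entry and 2.07% of all genes with one. These 10 were Atp5g2, Atp5j, Atp5k, Atp5l, Cox6a1, Ndufa8, Ndufaf4, Ndufaf5, Uqcr11 and Uqcrc1. Of them 8 were lower and 2 higher, where 51 of all 86 tested members were lower (59.3%). Their median difference was -0.15, beside -0.03 for members without the core. Without KO replicate 2, Atp5l moved from -0.43 to -0.16 and Uqcrc1 from -0.43 to -0.26. Atp5g2, Atp5k and Ndufaf4 had probe sets of mixed signs. No motif median was computed with an array left out. With a G before and a C after the core, 6 members matched (8.11%, against 2.48% and 1.07%), 4 lower and 2 higher, with a median of -0.11. The ETS motif was present in 19 (25.7%, against 20.7% and 9.93%), 12 lower and 7 higher, with a median of -0.03 beside -0.06. YY1 was present in 7 (9.46%, against 3.71% and 1.64%), 6 lower and 1 higher, with a median of -0.10 beside -0.04. The estrogen-related receptor half-site was present in 8 (10.8%, against 3.94% and 5.38%), 6 lower and 2 higher, with a median of -0.09 beside -0.05. The TATA motif TATAAA was present in 8 (10.8%, against 8.54% and 15.7%), of which 6 were tested, 3 lower and 3 higher. All of these shares count matches on both strands and come from promoters of the same length. No test was made of the shares or the medians.

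Other genes of mitochondrial energy metabolism, listed for their function, also gave no call. Of 148 genes listed, 139 were named on the array and 133 tested, 53 higher and 80 lower, with a median of -0.02. Of the 133, 0 passed the limma threshold, where 0.275% of all genes tested did. At so low a share, a list of this size can hold 0 calls without differing from other genes. At an unadjusted p below 0.05 in limma lay 8 of the 133, against 8.4% of all genes tested. Among 20 electron carriers and other entry points, 6 were higher and 14 lower. Cytochrome c itself, Cycs, differed by -0.02 ± 0.11, and cytochrome c1, Cyc1, a complex III subunit outside the naming rule, by -0.15 ± 0.17. Coq4, needed to make ubiquinone, read 329 and 256 in LM replicates 1 and 2 and 384 and 526 in KO replicates 1 and 2, a difference of 0.60 ± 0.26 (limma adjusted p = 0.554). Gpd2, which feeds electrons from glycerol phosphate to ubiquinone, differed by 0.39 ± 0.17 (limma adjusted p = 0.558).

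Of 38 assembly factors outside the naming rule, 17 were higher and 21 lower, with a median of -0.02. Sdhaf1, which helps fit Sdhb with its iron-sulfur clusters, read 1592 and 1602 in LM replicates 1 and 2 and 2091 and 2078 in KO replicates 1 and 2, and both KO arrays were above both LM arrays by 0.38 ± 0.14 (limma adjusted p = 0.458). Bcs1l, the chaperone that inserts the Rieske protein into complex III, read 203 and 388 in LM replicates 1 and 2 and 156 and 110 in KO replicates 1 and 2. All KO values were below all LM values, the LM arrays were far apart, and the difference was -1.02 ± 0.36 (limma adjusted p = 0.427).

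Of 22 genes of the citric acid cycle and pyruvate dehydrogenase, 9 were higher and 13 lower. Pdk1, the kinase that shuts pyruvate dehydrogenase, read 2149 and 1902 in LM replicates 1 and 2 and 1660 and 1347 in KO replicates 1 and 2, a difference of -0.43 ± 0.16 without overlap (limma adjusted p = 0.458). Its paralog Pdk2 read 363 and 456 in LM replicates 1 and 2 and 734 and 474 in KO replicates 1 and 2, a difference of 0.52 ± 0.25 in the opposite direction, also without overlap (limma adjusted p = 0.635). Of 22 regulators of mitochondrial biogenesis, 10 were higher and 12 lower: Tfam, which packages mitochondrial DNA, differed by -0.002 ± 0.17, the transcription factor Nrf1 by 0.02 ± 0.20 and Esrra by -0.27 ± 0.22. The deacetylase Sirt3 differed by 0.60 ± 0.26 (limma adjusted p = 0.572) and Ssbp1, which binds single-stranded mitochondrial DNA, by 0.11 ± 0.07. The 12 tested carriers of the inner and outer membrane had a median of -0.002, with 5 higher and 7 lower. The citrate carrier Slc25a1 read 117 and 25.7 in LM replicates 1 and 2 and 186 and 108 in KO replicates 1 and 2, near background and with overlap, and differed by 1.09 ± 0.57 (limma adjusted p = 0.677). The outer membrane channel Vdac2 differed by -0.18 ± 0.12. Of 19 genes of mitochondrial fission, fusion and cristae, 6 were higher and 13 lower, and Samm50, of the outer membrane sorting machinery, differed by -0.30 ± 0.13 (limma adjusted p = 0.558) and the inner membrane fusion protein Opa1 by -0.17 ± 0.15.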

How the data were processed

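The deposited values are linear signal intensities, 1 for each probe set on each array, scaled so that the mean of each array after trimming 2% at each end was 500; the summarising program is not given in the sources used here. Per the labels' protocols, Trizol RNA was amplified with WT-Ovation Pico and labelled with biotin. Of 45101 probe sets, 64 controls were left out. The platform annotation gave 34945 of the rest a single gene, 932 several and 9160 none, and 34741 of the 34945 matched RefSeq.

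The log2 of intensity plus 16 was used, a scale on which changes of dim genes are understated. Array medians were 7.42 and 7.28 (LM) and 7.36 and 7.44 (KO), so the arrays were quantile normalized, and all signals printed are on that scale. The brightest probe set stood for each gene. Background on each array was the signal that 95% of 80 probe sets for olfactory or vomeronasal receptors did not exceed, and genes above it on at least 2 arrays were tested (11255, leaving out 6938). KO minus LM was fitted with limma 3.58.1 (eBayes with trend, 2 residual and 9.96 prior degrees of freedom) in R 4.3.3, two-sided, with Benjamini-Hochberg adjustment over all genes tested and a threshold of 0.05; the script was tested on simulated data. The number of arrays limits the precision. Python 3.11.15, pandas 2.3.3 and matplotlib 3.10.9 were used for tables and plots.

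The members, lists and alternatives were chosen with earlier results of these data known. Genes named are, for each complex, the brightest member, the 2 highest and 2 lowest differences, the 3 smallest p-values, the catalytic subunits, the isoforms, the ATP synthase inhibitor and, for each list, the called genes and the 2 smallest p-values; others were chosen after their values were seen. Alternatives changed the filter, normalization, pseudocount, eBayes settings, choice of probe set and the replicate block, left out each array, or left out the assembly factors.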

Additional observations from a re-analysis of the deposited data

How the results depend on the processing

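No member was called under any alternative except Sdhd without LM replicate 1, so the count of called members ran from 0 to 1 with an array left out. That fit had 1 residual degree of freedom and took the spread from all genes, with the lone LM array assumed to vary like the others. Over all genes, 31 calls became 0 without the filter on dim genes, 0 without the intensity trend, 81 with median centring and 50 with every probe set separately, and 40 to 97 with an array left out. The 7 called cell cycle markers became 0 without the filter, 0 without the trend and 4 with the mean of all probe sets; their median was -0.66 with a pseudocount of 64, -0.67 with the mean of all probe sets and -0.99 to -0.65 with an array left out. No label says whether the array numbers pair the samples. The deviations of LM replicate 1 and KO replicate 1 from their group means correlated at -0.02 over all genes tested. Over the 86 members the differences between replicates correlated at -0.26. Such a correlation cannot exclude a pairing. With the number as a replicate block, 43 genes and 0 members were called, with 4 members at an unadjusted p below 0.05.

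With an array left out, the median of all members ran from -0.090 to 0.025, of complex I from -0.114 to 0.033, of complex II from 0.054 to 0.198, of complex III from -0.086 to 0.051, of complex IV from -0.091 to 0.070 and of complex V from -0.080 to -0.013. With every probe set separately, complex I was at 0.013 and complex II at -0.022, and with median centring complex V was at -0.12. For the lists, ranges with an array left out were -0.085 to 0.077 (electron carriers), -0.103 to 0.021 (assembly factors), -0.124 to -0.0050 (citric acid cycle), -0.035 to -0.029 (biogenesis), -0.034 to 0.020 (carriers) and -0.151 to -0.048 (fission, fusion and cristae). The citric acid cycle list was at -0.14 with the mean of all probe sets. The biogenesis list was at -0.038 without the filter, -0.074 with median centring, 0.016 with the mean of probe sets and -0.0061 with every probe set. The carriers were at -0.050 with median centring and -0.042 with every probe set, and the fission, fusion and cristae list at -0.143, -0.036 and 0.010 with median centring, every probe set and the mean of probe sets. The causes were not tested.

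Of 23 members followed, 17 kept their sign in every setting run and 6 did not. A gene's other probe sets were not counted singly there. Of the 17, Ndufc2, Sdhc and Sdhd had other tested probe sets of opposite sign. With an array left out, Atp5b ran from -0.10 to 0.26, Atp5g1 from -0.41 to 0.017, Atp5md from -0.025 to 0.17, Sdhb from -0.046 to 0.15, Uqcr10 from -0.50 to 0.022 and Uqcrq from -0.057 to 0.33. Sdhb was -0.014 with median centring and Uqcrq -0.058 with the mean of probe sets. Signal over background limits the isoforms near background, whose intervals reach past 2-fold.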
